A study of Arabidopsis thaliana with 4 samples.

Results

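Single upper probes are the shortest runs that the rule used here gives on an H3K27me3 tiling array. Each is an upper probe, at least 1 unit above the array median in both replicates, while the probe in neither neighbouring well is. There were 264 of them among 3524 upper probes and 21740 probes with a value. Upper probes made up 16.2% of all probes, and 7.49% of the upper probes were single. The rule was applied to the values themselves, so the height of the members over the median and the absence of an upper neighbour are descriptions and carry no test.

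H3K27me3, trimethylated lysine 27 of histone H3, is laid down by Polycomb repressive complex 2 and marks genes held silent. In Arabidopsis it often covers the transcribed part of individual developmental genes, and neighbouring marked genes can join into wider domains. On a tiling array such a domain appears as a run of probes next to each other. A single upper probe is the case in which no neighbour reaches the same level.

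The material was whole seedlings of Arabidopsis thaliana, ecotype Col-0, 10 days old, grown in liquid MS medium in long days and not treated. All 4 arrays form 1 group, in which DNA immunoprecipitated with a commercial H3K27me3 antibody was hybridised against its own input DNA in 2 colours. There were 2 immunoprecipitations, replicates I and II, each on 2 arrays with the dyes exchanged. The labels do not say whether the replicates came from separate cultures, so their spread may be technical, and no other genotype, treatment or antibody enters here.

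The deposited values do not differ between the arrays of 1 dye exchange at any probe, so each probe has 1 value per replicate and n = 2. The values behave as a log ratio whose base is not stated, and heights are given in units of that scale, relative to the median of each replicate. Immunoprecipitate over input is the likely direction, because the long tail of the values lies on the high side; with the sign turned the upper probes would be lower ones. Probes carry plate and well names only, and with no map to the genome neither genes nor sequences are given. Neighbours are consecutive wells of 1 probe series, named TA, TB, TC, TD and PD, and are read along rows A to H with wells 1 to 12; no source used here says whether this is genome order. Values of several probes share the same arrays and are not replicates of each other.

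The members fell into 3 shapes. In 78 (29.5%) both neighbours reached 0.5 units in both replicates; these are the broad peak tops. The other 181 with measured neighbours (68.6%) were sharp. Of these, 119 (45.1%) had 1 such neighbour and fell off on the other side, and 62 (23.5%) had none and stood steeply on both sides. The remaining 5 members had a neighbouring well without a value and were not placed in a shape. Of the 518 wells beside the 259 members with measured neighbours, 275 (53.1%) reached 0.5 units in both replicates, while 11.2% of all probes that are not upper did. Raised neighbours were not particular to the members. Wells beside them had medians of 0.92 units in replicate I and 0.58 in II. Those beside the ends of runs of 2 to 4 had 0.99 and 0.59.

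The members were low among the upper probes. They averaged 1.84 ± 0.46 units in replicate I and 1.34 ± 0.35 in II (SD over 264 probes), while upper probes in runs of 2 to 4 averaged 2.24 ± 0.54 and 1.61 ± 0.47 (SD over 1167 probes). Those in runs of 10 or more averaged 2.69 ± 0.62 and 2.05 ± 0.57 (SD over 850 probes). Height and run length are tied by the rule, since a probe just over a fixed limit is more likely to have neighbours under it. In replicate I the members ranged from 1.01 to 3.25 units with a median of 1.80. In replicate II they ranged from 1.0002 to 3.55 units with a median of 1.25. The 3 shapes had nearly the same median height, at 1.85, 1.77 and 1.69 units in replicate I for broad, one-sided and steep members, and 1.24, 1.24 and 1.27 in replicate II.

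Many members lay close to the limit. In 79 of them (29.9%) the lower of the 2 replicate values was within 0.1 units of the rule, and 144 further probes without an upper neighbour missed it by no more than that. Just inside were TA70B09, at 1.02 units in replicate I and 1.0002 in II, and TB13F12, at 1.18 and 1.0008. Just outside were TB88E01, which had 1.39 units in replicate II but missed the limit by 2.5e-05 units in replicate I, and TB67B06, at 1.45 and 0.9993. At the other end, 45 members (17.0%) reached 1.5 units in both replicates, and 11 reached 2 units. These counts were not made for upper probes in runs. The first quartile in replicate II was 1.09 units for members and 1.23 for probes in runs of 2 to 4.

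**Figure D1:**
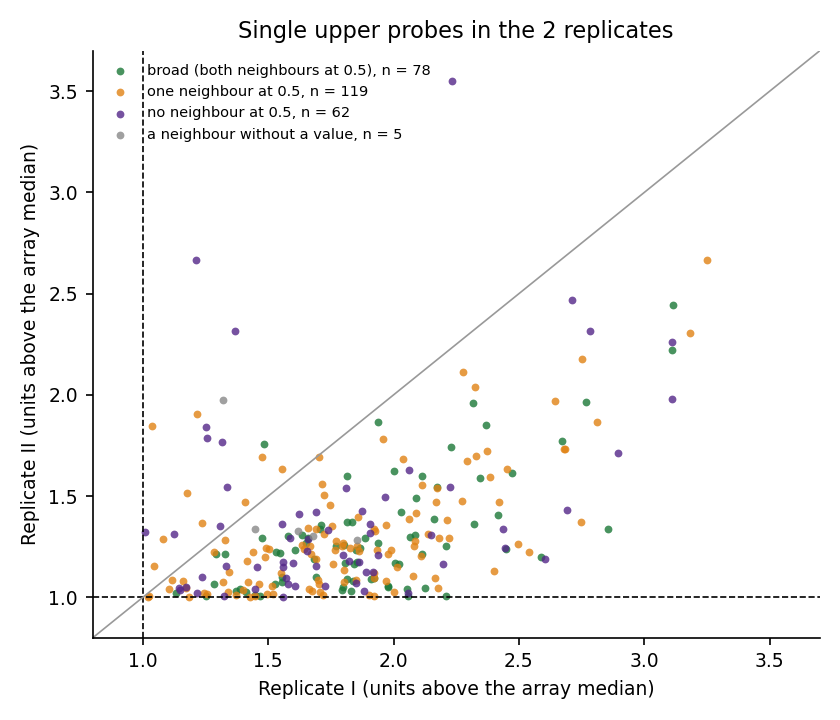
Each point is 1 of the 264 single upper probes, with its value in replicate I on the horizontal axis and in replicate II on the vertical axis, in units above the array median. Dashed lines mark the rule of 1 unit, the grey line marks equal values, and colours give the shape; 243 points lie under the grey line, and many lie close to the lower limit in replicate II.

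Ranked by the lower of the 2 replicate values, the highest broad member was TB65A07, at 3.11 units in replicate I and 2.45 in II (SD 0.47, n = 2). Its neighbours had 0.54 and 0.69 units in replicate I and 0.95 in II on both sides, so it is broad by the rule yet stood 2.43 and 1.49 units over its higher neighbour. The next were TA68C08, at 3.11 and 2.22 units, and TD01A07, at 2.77 and 1.97 units. High broad members of this kind were uncommon. Only 3 of the 78 rose at least 1 unit over both neighbours in both replicates, and the median broad member rose 0.28 units over its higher neighbour in replicate I and 0.33 in II.

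Among sharp members PD01E10 ranked first by the lower replicate value, at 3.25 units in replicate I and 2.67 in II (SD 0.41, n = 2). The well before it had -0.27 and -0.50 units and the well after it 1.25 and 0.56, so its signal fell off on both sides but not equally. By that value TA68H04 followed at 2.71 and 2.47 units, between wells at -0.21 and 0.17 in replicate I and at -0.38 and -0.12 in replicate II. TA06B11 had 2.78 and 2.32 units, between wells at 0.61 and -0.10 in replicate I and at -0.17 and -0.30 in replicate II. By the lower of the 2 replicates, these are also the 3 members that stood highest over their higher neighbour, by 2.54 and 2.59 units for TA68H04, 2.17 and 2.48 for TA06B11, and 2.00 and 2.11 for PD01E10. The order was another one in each replicate alone, where TA68E06 stood highest over its higher neighbour in replicate I, by 2.71 units, and TB40C07 in replicate II, by 3.39 units.

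Steep members were set off more clearly than the others. Their median height over the higher neighbour was 1.14 units in replicate I and 0.95 in II, and 22 of 62 (35.5%) rose at least 1 unit in both replicates. For one-sided members the medians were 0.51 and 0.50, and 7 of 119 (5.88%) did. The shapes were defined by the neighbours, so this order is built into them.

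Few members stood between wells below the median. In 4 members (1.52%) both neighbours were below the median in both replicates. This count changed with the centring and the limits, and it was not made for runs. At 1 well the first quartiles in replicates I and II were 0.52 and 0.23 units beside members. Beside the ends of runs of 2 to 4 they were 0.49 and 0.27. TA75C04 had 1.90 and 1.32 units, between wells at -0.18 and -0.08 in replicate I and at -0.13 and -0.35 in replicate II. TB75E08 had 1.94 and 1.21 units, between wells at -0.26 and -0.10 in replicate I and at -0.30 and -0.60 in replicate II. TB88B05 had 1.15 and 1.04 units, between wells at -0.20 and -0.90 in replicate I and at -0.23 and -0.73 in replicate II. The last, TA68E08, had 1.31 and 1.35 units and lies on plate TA 68, whose well order is taken up further on.

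The replicates ranked the members less alike than upper probes in runs. Pearson's r between replicates was 0.476 and Spearman's rho 0.427 over the 264 members. Over the 3260 upper probes in runs of 2 or more they were 0.865 and 0.866, and over runs of 2 to 4 alone 0.815 and 0.811. These are descriptions across probes that share both arrays, and the members span a narrower range because the rule holds them near the limit. Within the members r was 0.640 for broad, 0.582 for one-sided and 0.343 for steep ones. The SD between the 2 replicate values was computed after taking out their mean offset. It was 0.300 units for members and 0.218 units for upper probes in runs. Over all probes it was 0.301 units, and over probes that are not upper 0.270. By shape it was 0.225 for broad, 0.268 for one-sided and 0.397 for steep members.

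Replicate I was the higher in 243 members (92.0%), and by 0.498 units on average. Among upper probes in runs it was the higher in 98.2%. The largest gaps in this direction were in TC04B08, at 2.85 units in replicate I and 1.34 in II (SD 1.07, n = 2), and TA61B06, at 2.61 and 1.19 (SD 1.002, n = 2). The opposite gaps were in TB12A11, at 1.21 and 2.66 units (SD 1.03, n = 2), and TB40C07, at 2.23 and 3.55 (SD 0.93, n = 2). TB40C07 held the highest replicate II value of all members, and its neighbours had at most 1.04 units in replicate I and 0.16 in II. Of the 21 members higher in replicate II, 10 were steep, 9 one-sided, 1 broad and 1 without a measured neighbour.

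Most members had a neighbour over the limit in replicate I but not in replicate II. Taken alone, 23.8% of all probes reached 1 unit in replicate I, and 17.1% did in replicate II. Neighbours of members are not upper by the rule, and the same lean held over the whole array. There, 1659 probes reached 1 unit in replicate I only and 200 in replicate II only. In replicate I, 173 members (65.5%) had a neighbour at 1 unit or more, and in replicate II 12 (4.55%) did. For 164 members (62.1%) such a neighbour was there in replicate I only, for 3 in replicate II only, and for 9 there was 1 in each replicate on opposite sides. The broad tops show it most plainly, as 71 of 78 (91.0%) had a neighbour at 1 unit in replicate I, with a median of 1.53 units for the higher neighbour there and 0.90 in replicate II. Among steep members 12 of 62 (19.4%) did.

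The other 88 members (33.3%) stood alone in each replicate by itself. They comprised 50 of the 62 steep members, 30 of the 119 one-sided, 6 of the 78 broad and 2 of the 5 with an unmeasured neighbour. When the replicates were scaled to the same SD, the number of single probes was 273, but 180 of the 264 were among them, and the members with a neighbour at 1 unit in replicate I only numbered 107.

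Single probes were also found in 1 replicate alone and then looked up in the other. The reading is not independent of the members, since those that reached 1 unit in the other replicate are members by the rule, and it is given as a description. Replicate I alone had 354 single probes, of which 91 (25.7%) reached 1 unit in replicate II, and 269 (76.0%) reached 0.5 units. Their median in replicate II was 0.75 units (quartiles 0.51 and 1.02), and 6 fell below the median of the array. Probes in runs of 2 to 4 of replicate I reached 1 unit in replicate II in 52.0% of 1328 cases, those in runs of 5 to 9 in 74.0% of 1653, and those in runs of 10 or more in 82.3% of 1848. The background for this reading is the 17.1% of all probes that reached 1 unit in replicate II.

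In the other direction, 252 of the 387 single probes of replicate II (65.1%) reached 1 unit in replicate I, where 23.8% of all probes did. Their median in replicate I was 1.47 units. There, 88 (22.7%) were single again, 164 (42.4%) lay inside a run, and 135 (34.9%) stayed under 1 unit. At 0.5 units in replicate I stood 330 of the 387 (85.3%). Probes in runs of 2 to 4 of replicate II reached 1 unit in replicate I in 96.8% of 1175 cases. How far the 2 directions differed changed with the scaling of the replicates, and the cause of the difference was not tested. After scaling to equal SD, 47.5% of 326 single probes of replicate I reached 1 unit in replicate II, and 45.4% of 493 single probes of replicate II did so in replicate I. For runs of 2 to 4 the shares were 73.0% of 1219 and 90.4% of 1213. Single probes carried over less often than probes in runs in both directions and at both scalings. Height and run length are tied by the fixed limit, so these shares are not like for like. The difference was not tested, since there are 2 replicates and neighbouring probes are correlated.

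**Figure D2:**
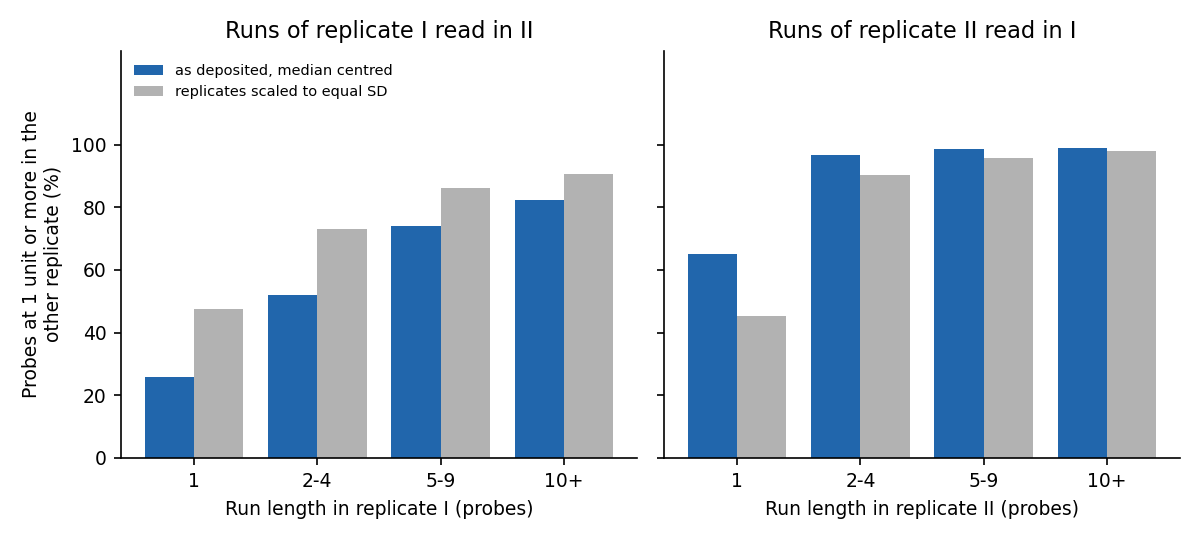
Bars give the percentage of probes at 1 unit or more in the replicate not used to define them, by the length of the run they formed in replicate I (left) or replicate II (right). Blue bars use the median-centred values and grey bars the replicates scaled to equal SD; single probes reach 25.7% and 65.1% in blue and 47.5% and 45.4% in grey, under every longer run length of the same panel and colour.

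Most single probes of 1 replicate were also local maxima in the other. Of the 349 single probes of replicate I with measured neighbours, 266 (76.2%) were higher than both neighbours in replicate II, against 28.2% of all probes with measured neighbours. For the single probes of replicate II the count was 299 of 381 (78.5%) in replicate I, against 27.4% of all probes. Probes in runs of 2 to 4 were higher than both neighbours in the other replicate in 38.2% of 1321 and 37.1% of 1171 cases. A probe inside a run can have a higher neighbour in the same run, so the runs are no like-for-like standard. Nor are all probes. By the rule a single probe is higher than both neighbours in its own replicate, and the replicates correlated at 0.932 over all probes. Over the 259 members with measured neighbours, 226 (87.3%) were the highest of the 3 wells in both replicates. In replicate II the member was the highest in 258, and in replicate I in 226. Much of this is set by the rule. Of all 264 members, 252 were single in replicate II taken alone and 91 in replicate I taken alone. A probe single in a replicate is higher than its measured neighbours there by definition. The height over the higher neighbour correlated between replicates at r = 0.667 over these 259, as a description.

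Values fell over the first wells away from the member, as they did beside other short runs, and showed no steady fall further out. At 1 well the medians over both sides were 0.92 units in replicate I and 0.58 in II, and at 2 wells, which the rule did not use, 0.55 and 0.35. Runs of 2 to 4, read outwards from their ends, had 0.99 and 0.59 units at 1 well and 0.61 and 0.34 at 2 wells. At 1 and 2 wells the medians beside members lay within 0.1 units of those beside the ends of short runs, while the members themselves were lower than the probes of short runs. At 4 wells the medians were 0.39 and 0.25 units beside members, against 0.23 and 0.17 beside runs of 2 to 4. At 5 wells they were 0.30 and 0.19 units beside members, against 0.26 and 0.17 beside runs of 2 to 4. At 9 wells they were lower beside members, at 0.18 and 0.11 units against 0.23 and 0.18. At 12 wells they were again higher beside members, at 0.38 and 0.21 units against 0.20 and 0.16. The median over all probes that are not upper was -0.13 units in replicate I and -0.10 in II.

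The shapes differed beyond the neighbours that define them. At 2 wells broad members had medians of 0.89 units in replicate I and 0.64 in II, one-sided members 0.45 and 0.27, and steep members 0.22 and 0.13. At 3 wells the medians were 0.66 and 0.38 for broad, 0.39 and 0.23 for one-sided, and 0.04 and -0.03 for steep members. Upper probes made up 23.2% of the wells at 3 wells from broad members, 15.1% of those from one-sided and 3.23% of those from steep members. Without the members on plate TA 68, steep members had medians of 0.12 and 0.01 units at 2 wells and -0.06 and -0.08 at 3 wells, and 1.96% of wells at 3 wells were upper. Neighbouring values are correlated along the array, so a shape set at 1 well carries on at 2 wells and the differences are not independent of the rule.

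**Figure D3:**
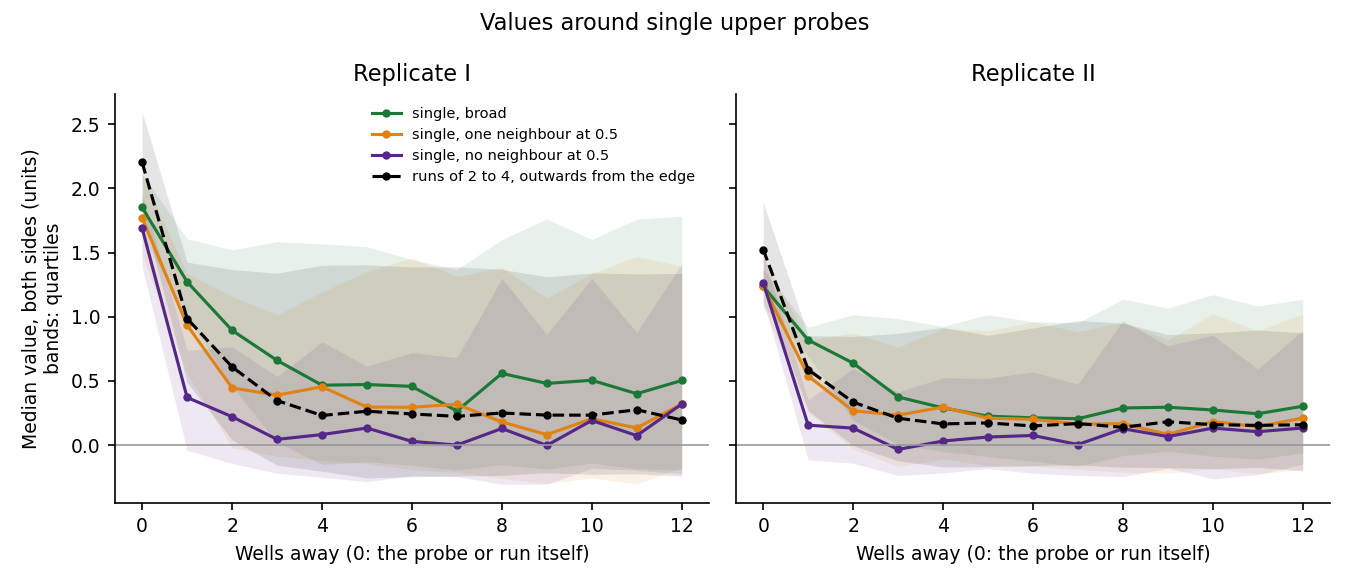
Lines give the median value on both sides of a member by the number of wells away, in units above the array median, for replicate I (left) and replicate II (right); bands are quartiles. Broad, one-sided and steep single probes start at similar heights and separate from 1 well on, and the dashed line shows runs of 2 to 4 read outwards from their ends.

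Members lay about as near to other upper probes as short runs did. Upper probes made up 16.3% of the wells 2 away from members and 15.4% of those 3 away, against 16.2% of all probes. From 4 to 12 wells away the share was 18.6% to 24.7%. The median distance from a member to the nearest other upper probe was 5 wells (quartiles 2 and 10), the same as for runs of 2 to 4, which also had a median of 5 wells and quartiles of 2 and 10. Runs of 5 to 9 had a median of 4 wells and runs of 10 or more 3 wells. The nearest run was itself single for 80 members (30.3%), had 2 to 4 probes for 125 (47.3%), 5 to 9 for 41 (15.5%) and 10 or more for 18 (6.82%). Among the 929 runs these kinds made up 28.4%, 44.8%, 20.6% and 6.24%, and each share among the members' nearest runs lay within a few percentage points of these, 15.5% against 20.6% being the widest gap.

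In 78 members (29.5%) a single well separated the member from the next upper probe, as it did in 32.2% of runs of 2 to 4. These members are not the same 78 probes as the broad members, of which 32 (41.0%) are among them. Of the 68 measured probes in these gaps, 52 (76.5%) reached 0.5 units in both replicates, 41 (60.3%) reached 1 unit in replicate I and 3 (4.41%) in replicate II. Among all 18216 probes that are not upper, 11.2% reached 0.5 units in both replicates, 1659 probes reached 1 unit in replicate I and 200 in replicate II. In 3 of the gaps the probe was below the median in both replicates. If gaps of 1 well were bridged, 186 members would stay single.

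Distance followed shape. The median was 3.5 wells for broad, 4 for one-sided and 8 for steep members, and 41.0%, 26.9% and 17.7% of them had an upper probe 2 wells away. Without plate TA 68 the steep median was again 8 wells, with 4 of 51 (7.84%) at 2 wells. More than 10 wells separated 61 members (23.1%) from any other upper probe, 21 of them steep.

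A few members were remote. Distances count wells by name, whether or not they carry a value. TC18H08 lay 603 wells from the nearest upper probe, a run of 4 earlier in the TC series, and no upper probe followed it. Many of these wells hold no value. Plates TC 13 and TC 17 carry 34 and 60 probes with a value, and the plates between them none. It had 1.16 units in replicate I and 1.08 in II (SD 0.06, n = 2), and the well before it had 1.18 and 0.70, so in replicate I it was not the highest. TA46B04 lay 162 wells from the next upper probe and 848 wells from the one before, with 1.66 and 1.23 units (SD 0.30, n = 2), and its neighbours had 0.76 and 0.88 units in replicate I and 0.46 and 0.30 in replicate II. The nearest run to TA46B04 was again a single probe, and the 848 wells before it include plates TA 38 and TA 39, with 62 and 42 values. In all 3 members lay 96 wells, the size of a plate, or more from any other upper probe.

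**Figure D4:**
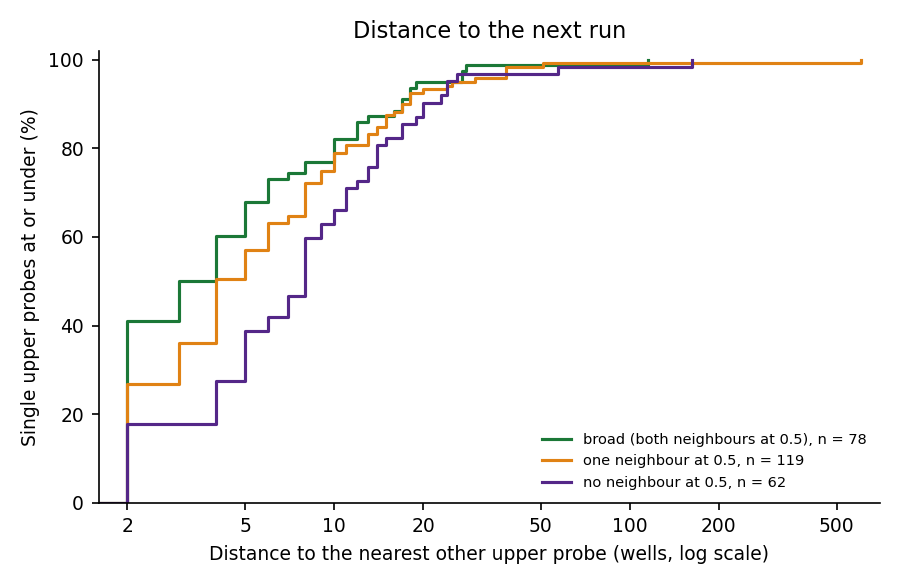
Steps give the cumulative percentage of single upper probes by the distance in wells, on a log scale, to the nearest other upper probe, for each shape. The steep members lie to the right of the others, with medians of 8 wells against 3.5 for broad and 4 for one-sided members.

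The share of single probes among the upper probes varied between the series. The TA plates held 125 members, 8.43% of their upper probes, or 7.26% without plate TA 68, and the TB plates 118, 6.74% of theirs. The TC plates held 16 members, 8.60% of their upper probes. Of these, 15 were on plates up to 12, and TC18H08 was the sole upper probe from plate 13 on. The 2 members on plate TD 1, 22.2% of its 9 upper probes, were TD01A07, described above, and TD01A09, at 3.18 units in replicate I and 2.30 in II (SD 0.62, n = 2). They share the well between them, TD01A08, which had 1.01 and 0.55 units, so in replicate I it joined them. The PD plates held 3 members, 3.16% of their upper probes. PD01E10 is described above, PD01C08 had 2.00 and 1.63 units, and PD03E09 had 1.45 and 1.01.

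By shape, the series differed. In the TB series 47 members were broad and 23 steep, and in the TA series 25 were broad and 34 steep, 11 of these 34 on plate TA 68. By plate row the members made up between 4.78% (row D) and 11.9% (row C) of the upper probes, and by well number between 5.07% (well 4) and 10.9% (well 10). On the plate edge the share was 6.22% and inside 8.33%. None of these differences was tested.

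Members stood on 142 of the 231 plates. Of these plates 75 held 1 member, 35 held 2, 25 held 3, 5 held 4 and 1 held 5. Plate TA 68 held 19, which is 7.20% of all members on 1 plate. They were 19 of its 22 upper probes (86.4%). All 19 lay in even-numbered wells, which held 21 of the 22 upper probes. Elsewhere the members split evenly, with 123 in even wells and 122 in odd wells.

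On plate TA 68 consecutive wells were not alike. Values in 1 replicate correlated with those of the next well in the other replicate at -0.307, whereas the median of this correlation was 0.691 on the other 173 plates with at least 90 values and 5 upper probes. Among these, plate TA 97 was also below 0, at -0.056, with 86 upper probes and 0 members. The replicates themselves correlated at 0.812 on plate TA 68, so the values largely repeated between immunoprecipitations. This was still the lowest such correlation among the plates with at least 90 values and 5 upper probes. Plate TA 67 was next, at 0.820. Wells 8 apart in name order were alike instead, at 0.579, and wells 16 apart at 0.423. On the other 173 plates the median at 8 wells was 0.021, and plate TA 99 reached 0.596 at 8 wells, beside 0.773 at 1 well. Pooled over all other plates, which differ in level, the correlation was 0.755 at 1 well, 0.274 at 8 wells and 0.186 at 16. Of those 173 plates 1 more had its highest correlation at another distance than 1 well, plate TD 1, at 2 wells (0.650 against 0.557 at 1 well). The comparison covered distances up to 24 wells and was made after the values were seen.

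The members on plate TA 68 show the same in single values. TA68H04 lies 8 wells after TA68G08, at 3.11 units in replicate I and 1.98 in II, and 8 wells before TA68H12, at 3.07 and 2.20. TA68G08 in turn lies 8 wells after TA68F12, at 2.90 and 1.71. Likewise TA68C08 lies 8 wells after TA68B12, at 2.45 and 1.63 units, and TA68E06, at 3.11 and 2.26, lies 8 wells after TA68D10, at 2.64 and 1.97, and 8 wells before TA68F02, at 1.48 and 1.69. TA68E08, counted above among the 4 members between low wells, lies 8 wells after TA68D12, at 1.92 and 1.09.

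In all, 17 of the 19 members on the plate (89.5%) had an upper probe 8 wells away on it, as had 93 of the 245 members on other plates (38.0%). The 2 shares are not like for like. Wells 8 apart are both even or both odd, and 21 of the 48 even wells of plate TA 68 were upper. Of the 35 wells 8 away from its members, 22 (62.9%) were upper, against 23.1% of 455 on other plates. The distance of 8 wells was itself chosen from these values. When the wells of the plate were read so that wells 8 apart follow each other, neighbours correlated at 0.578 between replicates, which restates the likeness at 8 wells from which this order was made. The 22 upper probes then formed 10 runs, 3 of them single, and the longest had 4 probes. How the wells of plate TA 68 relate to positions in the genome was not tested. Without the members of this plate, 245 remain, of which 163 are sharp and 77 broad.

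**Figure D5:**
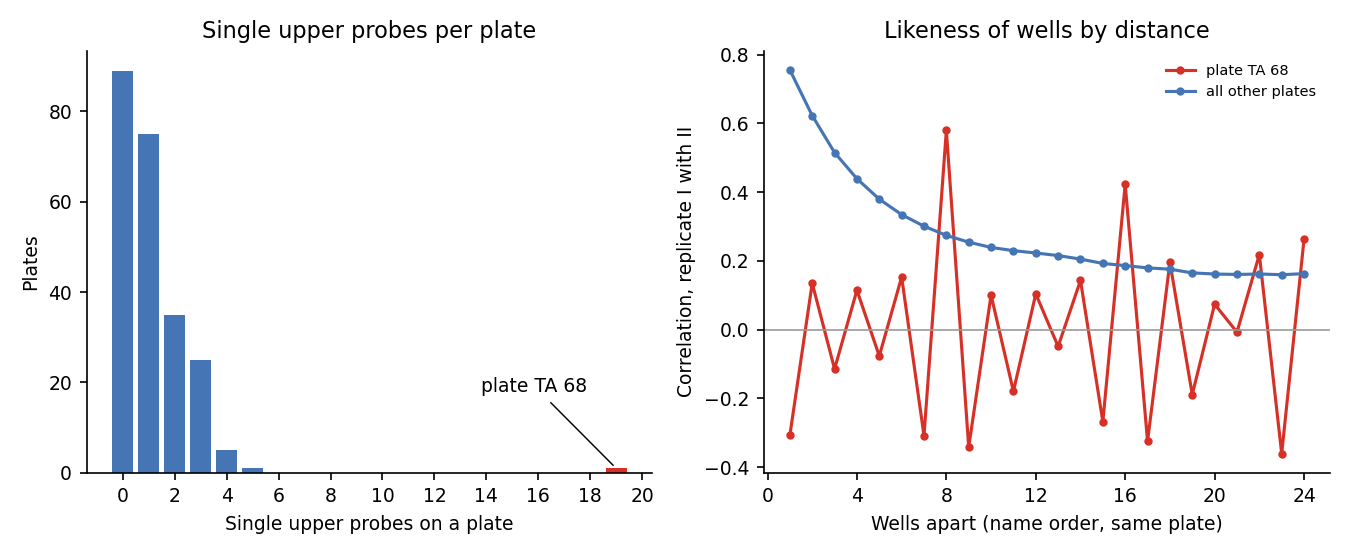
The left panel counts plates by the number of single upper probes they hold, with plate TA 68 alone at 19. The right panel gives the correlation of a well in 1 replicate with a well a given number of wells away in the other, over the same plate: pooled over the other plates it is highest at 1 well, and on plate TA 68 it is -0.307 at 1 well and peaks at 8 wells (0.579) and 16 wells (0.423).

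The 5 members with an unmeasured neighbour were all in the TA series. TA29E07 had no measured neighbour on either side and stood at 1.32 units in replicate I and 1.97 in II (SD 0.46, n = 2). TA34E03 had 1.85 and 1.28 units beside a well at -0.04 and -0.65. TA20D10, TA21B01 and TA21B06 had 1.45, 1.68 and 1.62 units in replicate I and 1.34, 1.30 and 1.33 in replicate II, each beside 1 measured well at 0.79 units or more in both replicates. Whether the unmeasured wells would be upper is unknown, so these 5 are single only as far as their measured wells show.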

How the data were processed

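Chromatin immunoprecipitated for H3K27me3 and its input DNA from Col-0 seedlings were hybridised on 4 two-colour arrays, 2 for each of replicates I and II, with the dyes exchanged. The values are the authors' processed score per probe, deposited as 1 column per array. How the score was background-corrected and normalized is not given in the sources used here, nor are its log base and its direction. Its median before centring was -0.94 in replicate I and -1.20 in replicate II. Of 21800 listed features, 21761 are plate-and-well probes, of which 21740 carry a value; the control spots were left out. No depth or signal over background is known from a score, and the number of arrays limits the precision.

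The arrays of a dye exchange differed by 0 at every probe and were averaged to 1 replicate. Each replicate was centred on its median over the plate-and-well probes. An upper probe reached 1 unit in both replicates, a run was an unbroken set of upper probes in consecutive wells of 1 series, and a single upper probe was a run of 1. A neighbour counted as raised at 0.5 units in both replicates. Distances were counted in wells, with 96 wells per plate. The members, the limits and the lists were chosen with earlier results of these data known. All values are therefore descriptions, and no test was run.

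Probes were named by a fixed rule: the 3 highest broad and the 3 highest sharp members, the 3 standing highest over their neighbours, those between wells below the median, the 2 most remote, the 2 with the largest gap between replicates in each direction, the 2 just inside and the 2 just outside the limit, and members of groups of 3 or fewer. The probes of plate TA 68, and the members with an unmeasured neighbour, were named after their values were seen. Counting of runs was tested on simulated data. Alternatives covered the centring, scaling, limits, neighbour order, replicates and probe series. Tables were made with pandas 2.3.3, numpy 2.4.6 and scipy 1.17.1 under Python 3.11.15, and plots with matplotlib 3.10.9.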

Additional observations from a re-analysis of the deposited data

How the results depend on the processing

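Number and shape of the single probes depended on the limits and on the centring. Without centring 156 probes were single, of which 8 were among the 264; 35 of them were broad, 0 lay between wells below the median, the median distance was 8 wells and the replicates correlated at 0.292. Centring on the mode gave 136 broad members, 15 between wells below the median and a distance of 4 wells, and 156 of its 377 single probes were among the 264. Centring each series gave a distance of 4 wells. A rule of 0.5 units gave 479 single, 46 broad and 428 sharp probes, 41 between wells below the median and 4 wells. A rule of 1.5 units gave 109 sharp probes, 0 between wells below the median and 6 wells. With neighbour limits of 0.25 and 0.75 units 141 and 23 members were broad, and 118 were sharp at 0.25. Counting 1 raised neighbour as enough gave 197 broad and 62 sharp members by construction. The mean of the replicates gave 11 members between wells below the median, a distance of 4 wells and a correlation of 0.354. With 1 replicate left out there were 354 to 387 single, 90 to 93 broad and 259 to 288 sharp probes, 26 to 52 between wells below the median, distances of 4 to 5 wells and correlations of 0.474 to 0.627. With wells ordered by column 1967 probes were single and 1903 sharp, 289 lay between wells below the median, the distance was 3 wells and the correlation 0.846. Scaling to equal SD and quantile normalization gave 273 and 267 single probes, 180 and 162 of them among the 264. Quantile normalization put 56.4% of the single probes of replicate I at 1 unit in replicate II and 38.1% in the other direction, and left 82 members with a neighbour at 1 unit in replicate I only; equal SD gave 47.5% and 107 for the first and last of these. Under median, mode and series centring, equal SD and quantile normalization alike, 131 of the 264 (49.6%) were single. Added after the data were seen were the sign turned, which left 8 single and 8 sharp probes, 0 broad, 0 between wells below the median, a distance of 361 wells and a correlation of 0.698; gaps of 1 well bridged, with 46 broad members and 8 wells; plate TA 68 left out, with 246 single probes, 1 of them freed by its removal; and plate TA 68 reordered, with 248. The readings of 1 replicate in the other, and of neighbours in replicate I only, under other scalings were added then too. The cause of these moves was not tested, except where the alternative itself sets the count. Members near a limit cannot be placed firmly with n = 2. No paired analysis was possible because there is 1 group and no test.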
